A study of Mus musculus with 5 samples.

Results

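DNA replication and nucleotide supply were examined through 48 genes, named one by one from textbook knowledge of the replication machinery. Earlier results of these data were known when the genes were chosen. They encode the proteins that license, unwind and copy DNA, the enzymes that make its building blocks, and the cyclins E. All 48 had a probe set, out of 18193 genes with a probe set paired with exactly 1 gene symbol. Of each gene only the probe set with the highest mean over the 5 arrays was used. Group labels did not enter this choice. Since 3 of the 5 arrays were clone arrays, it leans toward probe sets that are bright in clone.

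The arrays measured total RNA of cultures that held CD8 T cells of one specificity for the insulin B chain. The 3 arrays of the first group came from G9C8, a cytotoxic T cell clone kept in culture, with 1 array for each of 3 separately frozen vials. The 2 arrays of the second group came from spleen cells of NOD.G9C8 transgenic mice on the NOD/LtJ background, 1 mouse for each array, aged 4 to 8 weeks. Cells of both groups had 3 days with insulin B peptide (10 µg/ml), then 2 days of rest with IL2 (5 IU/ml). Every array therefore holds cells after activation, and none holds unstimulated cells. The clone is 1 cell line, so its vials are not separate animals, and the labels name no sort of the spleen cells before RNA extraction. Differences are given as clone minus transgenic on the log2(signal + 20) scale, which understates those of dim genes, and a gene is called when its adjusted p is under 0.05 (limma, Benjamini-Hochberg over 12446 genes). The standard error of a difference had a median of 0.18 over the 48 genes, and the number of arrays limits its precision.

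DNA is copied once in each division. In G1, the origin recognition complex with CDC6 and CDT1 loads the ring-shaped MCM helicase on DNA, and geminin blocks CDT1 afterwards so that no origin is licensed again. In S phase, CDC45 and the GINS complex turn the loaded ring into an active helicase, primase and polymerase alpha start each strand, and polymerases delta and epsilon extend it with the help of the PCNA clamp, which the RFC complex loads. Many of these genes are transcribed under E2F factors, so their mRNAs are known as marks of dividing cells, and activated CD8 T cells divide fast. In RNA of whole cultures, fewer cells in division and less RNA per dividing cell cannot be told apart.

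The E2F binding motif is shown here in promoters of members, because it is the sequence feature that these genes are best known to share. RefSeq promoters (GRCm38.p6), each 300 bases from 250 before the transcript start to 50 after it, were matched for 39 of the 48 genes. They were searched on both strands for TTTCCCGC, TTTGGCGC, TTTCGCGC and TTTGCCGC, where matches on opposite strands may overlap. In 15 of the 39 genes (38.5%) at least 1 promoter held a match, against 464 of 10053 tested genes with a promoter in the table (4.62%) and 2.26% of all promoters in it. The CCAAT box, searched as CCAAT on both strands, was found in 59.0% of the members and 42.4% of the tested genes. A match is a run of letters and was not tested for binding. One window is shown for each of 7 genes. Orc3 and Pola1 also had a match before the start, and their windows are not shown. The windows shown lie before the start, run 5′ to 3′ on the gene's strand, and carry the matches in capitals.
Mcm6 (chr1:128359729-128359768, minus strand): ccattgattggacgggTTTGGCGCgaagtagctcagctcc
Rfc3 (chr5:151651209-151651234, minus strand): aagtgacgtcgcacgcTTTCGCGCtc
Mcm5 (chr8:75109340-75109383, plus strand): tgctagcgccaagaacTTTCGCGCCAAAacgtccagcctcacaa
Cdc6 (chr11:98907997-98908036, plus strand): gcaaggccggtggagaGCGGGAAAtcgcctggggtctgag
Mcm7 (chr5:138172025-138172064, minus strand): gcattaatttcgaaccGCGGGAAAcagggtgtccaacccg
Orc1 (chr4:108579411-108579450, plus strand): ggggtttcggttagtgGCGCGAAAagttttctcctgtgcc
Gins3 (chr8:95633502-95633541, plus strand): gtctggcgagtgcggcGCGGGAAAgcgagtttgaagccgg
The first 2 belong to genes that were higher in clone, where clone vial 2 was also the lowest vial. The next 3 belong to genes that were low in that vial. The last 2 belong to genes in which it was not low by the brightest probe set. Their dimmer probe sets were lower in vial 2 than the mean of the other vials (-0.61 in Orc1 and -0.21 in Gins3). In Mcm5 a match on each strand overlaps the other. Among the members called higher in clone, 3 of 8 with a promoter in the table held a match, among those not called 12 of 29, and among those called lower 0 of 2.

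The set as a whole was only partly different between the groups. Of the 48 genes, 10 were higher in clone, 2 were lower and 36 were not called. Over all genes tested 22.0% were higher and 21.7% lower, 43.8% in all, so that the share of members called higher (20.8%) was close to the background and the share called lower (4.17%) was below it. The median difference of the members was 0.17, against -0.01 for all genes tested, and the members ranged from -0.60 for Cdc6 to 1.61 for Rfc3. Differences of 2-fold or more (1 on the log2 scale) were seen for 4 members, all toward clone. All 3 clone arrays lay above both transgenic arrays for 15 members and below them for 4, where over all genes tested this was so for 31.9% and 32.6%.

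**Figure D1:**
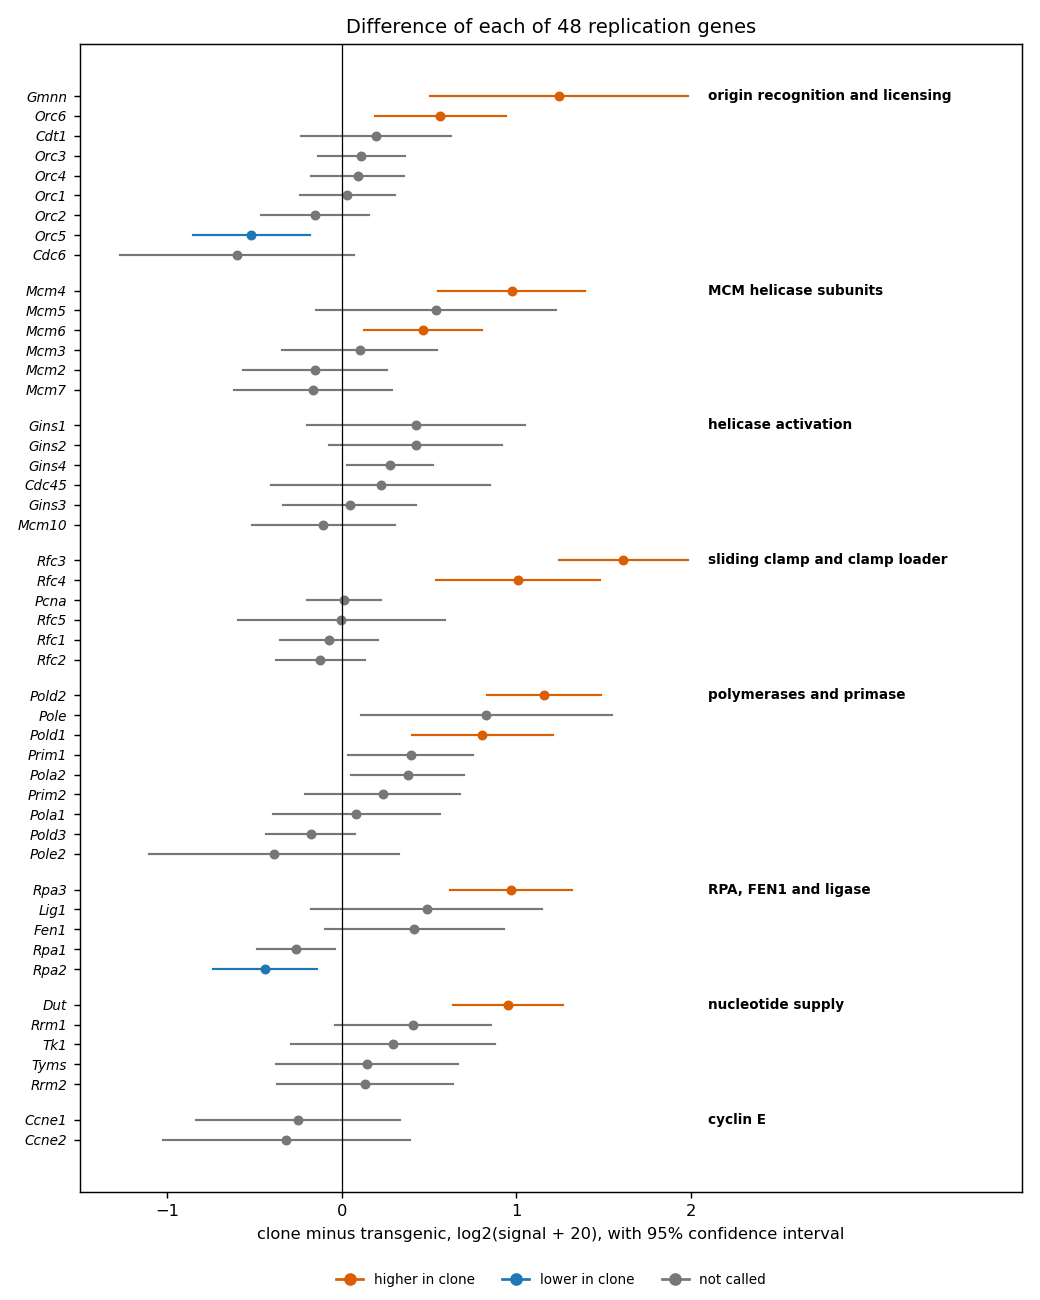
Difference between clone and transgenic cells for each of the 48 genes, grouped by role, on the log2(signal + 20) scale (points, with 95% confidence intervals of the limma fit as bars; 3 clone and 2 transgenic arrays). The 10 genes higher in clone are spread over 6 of the 8 roles, and Rfc3 at 1.61 has the largest difference.

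Among the origin recognition and licensing genes, 2 of 9 were higher in clone, 1 was lower and 6 were not called. Geminin, encoded by Gmnn, gave signals of 779 and 808 in the transgenic mice and 2652, 1094 and 2386 in clone vials 1, 2 and 3. All clone vials lay above the mice, but vial 2 lay much nearer to them than the other vials did. The difference was 1.24 (SE 0.32; adjusted p = 0.0138), or 2.37-fold. The call ended without the first mouse (adjusted p = 0.0725) or the second (0.0609), and the difference was 1.64 without vial 2 (adjusted p = 2.08e-05).

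The origin recognition complex did not move as a unit. Orc6, encoding its smallest subunit, gave 718 and 588 in the mice and 1062, 796 and 1084 in the vials, a difference of 0.57 (SE 0.16; adjusted p = 0.0223). The groups did not overlap, and the call ended without the second mouse (adjusted p = 0.162), without vial 1 (0.0697), without vial 3 (0.0659) or with eBayes without trend (0.0521). Orc5 went the other way, with 1055 and 1087 in the mice and 831, 614 and 800 in the vials. Every vial lay below both mice, by a difference of -0.52 (SE 0.15; adjusted p = 0.0207), although the call ended without the first mouse (0.0883) or the second (0.108). Orc1, encoding the largest subunit, was flat over all 5 arrays, at 557, 554 (transgenic), 565, 573 and 569 (clone), with a difference of 0.03 (95% confidence interval -0.24 to 0.30). Its dimmer probe set was 0.61 lower in vial 2 than in the other vials, so that this flatness belongs to the brighter probe set.

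The MCM loaders were not called. Cdt1 gave 1918 and 2641 in the mice and 2983, 2030 and 2835 in the vials, so that vial 2 fell between the mice, and the difference was 0.20 (-0.24 to 0.63; adjusted p = 0.438). Cdc6, an ATPase that loads the helicase beside CDT1, gave 330 and 403 in the mice and 251, 149 and 336 in the vials. Vial 3 overlapped the mice and vial 2 lay at the bottom, with a difference of -0.60 (-1.27 to 0.07; adjusted p = 0.132). It was called lower without vial 3 (-0.85, adjusted p = 0.0379) and in the fit with the replicate number as a block (adjusted p = 0.0246). Orc4, an ATPase subunit gene, gave 1292 and 1318 in the mice and 1476, 1231 and 1486 in the vials, with vial 2 below both mice (0.09, adjusted p = 0.556).

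Probe sets of Orc2 and Orc4 disagreed in direction. The brightest of Orc2 gave 676 and 610 in the mice and 588, 517 and 627 in the vials (-0.15, not called), while its dimmest gave 304 and 288 against 405, 342 and 471 (0.42). A dimmer Orc4 probe set gave 435 and 474 against 299, 313 and 260 (-0.62), with all vials below the mice, and a still dimmer one gave 62.1 and 60.6 against 165, 177 and 151 (1.18), with all vials above them. Orc3 differed by 0.11 and was not called.

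Of the 6 subunits of the MCM ring, Mcm4 and Mcm6 were higher in clone and the other 4 were not called. Mcm6 gave 3501 and 3994 in the mice and 5597, 4188 and 5910 in the vials. The groups did not overlap, with vial 2 just above the second mouse, and the difference was 0.47 (SE 0.15; adjusted p = 0.0327), or 1.38-fold. Of 15 alternative settings only 7 kept this call, and it ended without vial 1 (adjusted p = 0.0931), vial 3 (0.0943), the first mouse (0.197) or the second (0.0644), under quantile normalization (0.0648), with no filter (0.0636), with eBayes without trend (0.0898) and with the replicate block (0.0966). A further bright Mcm6 probe set, of the _x_at type described next, differed by 0.83.

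Mcm4 depended on the probe set. Its brightest probe set gave 1623 and 2120 in the mice and 3866, 2882 and 4424 in the vials, a difference of 0.98 (SE 0.18; adjusted p = 0.00291). It is of Affymetrix's _x_at type, whose probes can match other transcripts. The other probe set, not of that type, gave 2726 and 2448 in the mice and 2295, 1472 and 1988 in the vials, so that all vials lay below both mice. In the mice it was the brighter one, so the choice between them rested on the clone signal. It differed by -0.45 and was not called when probe sets of that type were left out (adjusted p = 0.0618). With the mean over both probe sets the difference was 0.26 and the call ended (adjusted p = 0.238). Both probe sets put vial 2 lowest among the vials, by 0.52 and 0.53, so they disagree on the groups and agree on that vial.

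Mcm5 gave 1848 and 2797 in the mice and 4107, 2088 and 4252 in the vials. Vials 1 and 3 lay far above both mice and vial 2 between them, which left a wide interval around a difference of 0.54 (-0.15 to 1.23; adjusted p = 0.182). Mcm7 gave 4470 and 4630 in the mice and 4651, 2932 and 4914 in the vials, with vial 2 alone below the mice (difference -0.16, adjusted p = 0.543). Its 3 other probe sets differed by 0.22, 0.29 and 0.45, against the sign of the brightest. Mcm2 and Mcm3 differed by -0.15 and 0.10 and were not called.

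None of the 6 genes of helicase activation was called. Gins4, a GINS subunit, gave 1192 and 1342 in the mice and 1650, 1480 and 1485 in the vials, which did not overlap, and its difference of 0.28 (0.03 to 0.52) had an adjusted p of 0.0675 (0.0440 under quantile normalization). Gins2 gave 534 and 531 in the mice and 719, 538 and 969 in the vials, where vial 2 was at the level of the mice (difference 0.43, adjusted p = 0.149). A dimmer Gins2 probe set differed by 0.94 and was called where _x_at and _s_at probe sets were left out (adjusted p = 0.0128), as was the mean over both (0.68, adjusted p = 0.0395). Gins1 (0.43), Cdc45 (0.22), Gins3 (0.05) and Mcm10 (-0.10) were not called either, and Cdc45, which gave 286 and 426 in the mice, ranged from 281 to 531 in the vials. A dimmer Cdc45 probe set gave 31.1 and 147 in the mice and 248, 229 and 225 in the vials (1.46), and with the mean over both probe sets the difference was 0.84 (adjusted p = 0.0694).

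The 5 clamp loader genes differed widely among themselves, with differences from -0.12 to 1.61. Rfc3, a small subunit of the loader, gave 495 and 405 in the mice and 1410, 1191 and 1674 in the vials. Even the lowest vial was far above both mice, and the difference was 1.61 (SE 0.16; adjusted p = 0.000103), or 3.06-fold. A further Rfc3 probe set differed by 1.53. Rfc4 gave 727 and 711 in the mice and 1692, 1060 and 1771 in the vials, all above the mice with vial 2 lowest (1.01, SE 0.21; adjusted p = 0.00421), and its other probe set differed by 0.81. Both were called under each of the 15 alternative settings.

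The remaining loader genes were not called. Rfc1, the large subunit, gave 1046 and 990 in the mice and 901, 914 and 1098 in the vials, which overlapped, with a difference of -0.07 (-0.35 to 0.21; adjusted p = 0.673). Rfc2, a small subunit gene, gave 1729 and 1676 in the mice and 1697, 1398 and 1609 in the vials (-0.12, -0.38 to 0.13), but a dim probe set of it gave 129 and 143 against 218, 126 and 270 (0.47). In both, vial 2 was below both mice. Rfc5 gave 1052 and 959 in the mice and 1227, 651 and 1263 in the vials, with vials 1 and 3 above both mice and vial 2 below them, which gave a difference of -0.00 (-0.59 to 0.59). Pcna, the clamp itself, was bright and even, at 10367 and 10389 in the mice and 10559, 9588 and 11349 in the vials (0.01, -0.20 to 0.22; adjusted p = 0.924).

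**Figure D2:**
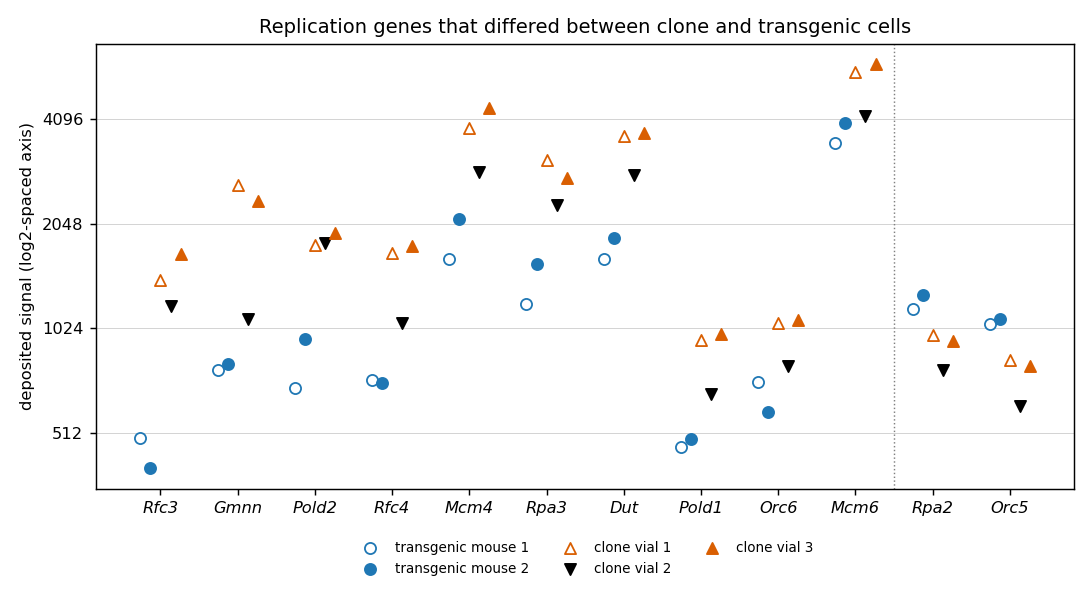
Deposited signal on each of the 5 arrays for the 12 genes called, 10 higher (left of the dotted line) and 2 lower in clone, on a log2-spaced axis. Circles are transgenic mice and triangles clone vials. Vial 2 (black) is the lowest vial in every gene but Pold2.

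Among 9 polymerase and primase genes, Pold1 and Pold2 were higher in clone and 7 were not called. Pold2, encoding an accessory subunit of polymerase delta, gave 689 and 954 in the mice and 1782, 1800 and 1927 in the vials. The vials were close together and all far above the mice, with a difference of 1.16 (SE 0.14; adjusted p = 0.000306), or 2.23-fold. Pold1, its catalytic subunit, gave 467 and 492 in the mice and 946, 665 and 984 in the vials (0.80, SE 0.18; adjusted p = 0.00622), again with no overlap and vial 2 lowest. Pold3, another subunit gene of the same enzyme, gave 970 and 878 in the mice and 782, 830 and 832 in the vials, all below the mice, but its difference of -0.18 (-0.43 to 0.08) was not called (adjusted p = 0.238).

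Polymerase epsilon genes varied widely between arrays. Pole, its catalytic subunit, gave 229 and 415 in the mice and 716, 372 and 675 in the vials, where vial 2 fell between the mice (0.83, 0.11 to 1.55; adjusted p = 0.0624). It was called higher under quantile normalization (adjusted p = 0.0440) and without the second mouse (0.0329). Pole2 gave 654 and 687 in the mice and 633, 296 and 694 in the vials, so that vials 1 and 3 were at the level of the mice and vial 2 at under 300 (difference -0.39, adjusted p = 0.352). Prim1, the catalytic primase subunit, gave 1984 and 2052 in the mice and 3049, 2101 and 2943 in the vials, which lay above the mice, vial 2 by little (0.40, 0.04 to 0.75; adjusted p = 0.0719). Pola2 gave 728 and 788 in the mice and 1148, 855 and 990 in the vials, also without overlap (0.38, 0.05 to 0.70; adjusted p = 0.0593), and was called under quantile normalization (0.0338) and with the filter at the 60th percentile (0.0494).

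Prim2, the large primase subunit, gave 592 and 633 in the mice and 839, 540 and 835 in the vials, with vial 2 below both mice (0.23, adjusted p = 0.367). A dim Prim2 probe set gave 225 and 264 against 103, 94.2 and 24.7, a difference of -1.62, so the probe sets disagree. Pola1, the catalytic subunit of polymerase alpha, differed by 0.08 and was not called.

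The 3 subunits of RPA, the complex that coats single-stranded DNA, were split. Rpa3, its smallest subunit, gave 1206 and 1575 in the mice and 3121, 2328 and 2774 in the vials, well apart (0.97, SE 0.15; adjusted p = 0.00120), or 1.96-fold. Rpa2 gave 1166 and 1281 in the mice and 977, 777 and 944 in the vials, all below the mice (-0.44, SE 0.13; adjusted p = 0.0242), with a further probe set at -0.36. Its call ended without the first mouse (adjusted p = 0.0677), without the second (0.154) or with eBayes without trend (0.0531). Rpa1, the large subunit, gave 6564 and 6816 in the mice and 5954, 5012 and 5818 in the vials, also all below the mice, and was not called (-0.26, -0.48 to -0.04; adjusted p = 0.0600) except under quantile normalization (adjusted p = 0.00619).

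Of the enzymes that finish the lagging strand, neither was called. Lig1, the ligase that seals its fragments, gave 786 and 1023 in the mice and 1610, 788 and 1590 in the vials. Vial 2 was at the level of the lower mouse while vials 1 and 3 lay above both (0.49, -0.17 to 1.15; adjusted p = 0.210). Fen1, the flap endonuclease gene, gave 1820 and 2928 in the mice and 2726, 2706 and 3993 in the vials, where the mice lay far apart and the groups overlapped (0.42, adjusted p = 0.170). This Fen1 probe set is of the _x_at type, and without that type the difference was 0.01 (adjusted p = 0.962). It was 0.08 without the first mouse and 0.76 without the second, where it was called (adjusted p = 0.0379).

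Of the 5 genes of nucleotide supply, only Dut was called, and all 5 differences were positive. Dut encodes the enzyme that removes dUTP and so keeps uracil out of DNA. It gave 1621 and 1869 in the mice and 3665, 2828 and 3754 in the vials, with no overlap (0.95, SE 0.14; adjusted p = 0.000761), or 1.94-fold, and was called under each alternative setting. Its dimmer probe set differed by 0.26. Rrm1, the large subunit of ribonucleotide reductase, gave 1209 and 1288 in the mice and 1945, 1217 and 1938 in the vials, and Rrm2, the small subunit, 2975 and 3402 against 4289, 2440 and 4066. In both genes vials 1 and 3 were above the mice and vial 2 was not, and neither was called (Rrm1 0.41, adjusted p = 0.127, and Rrm2 0.13, adjusted p = 0.658). A dim Rrm1 probe set gave 191 and 239 against 162, 166 and 144 (-0.40), against the sign of the brightest. Tk1, thymidine kinase, gave 853 and 880 against 1330, 693 and 1311, the same pattern (0.29, adjusted p = 0.389). Tyms, thymidylate synthase, was dim (159 to 232 over the 5 arrays) and differed by 0.14.

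The cyclin E genes, which drive entry into S phase, were not called. Ccne1 gave 1119 and 1037 in the mice and 1379, 696 and 765 in the vials, so that vial 1 was above and vials 2 and 3 below the mice (-0.25, -0.84 to 0.34; adjusted p = 0.468). It was called lower without vial 1 (-0.55, adjusted p = 0.0136). This Ccne1 probe set is of the _x_at type. The dimmer one, not of that type, gave 539 and 521 in the mice and 472, 318 and 442 in the vials. All vials lay below both mice there (-0.37), so vial 1 was above the mice only by the brighter probe set. Ccne1 was not called when probe sets of the _x_at type were left out. Ccne2 gave 272 and 238 in the mice and 268, 120 and 246 in the vials, with vial 2 apart (-0.32, adjusted p = 0.444).

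The pattern shared by most members was the position of clone vial 2. It was the lowest of the 3 clone arrays for 43 of 48 members (89.6%), against 34.7% of all genes tested. Vial 1 was lowest for the other 5, which were Orc1, Gins3, Rfc1, Pold2 and Pold3, and vial 3 for none. These positions are those of the brightest probe sets. The dimmer probe sets of Orc1, Gins3 and Rfc1 put vial 2 lowest. Those of Pold3 put vial 3 lowest, with vial 2 at -0.19 and -0.38 against the mean of the other vials. The median of vial 2 minus the mean of vials 1 and 3 was -0.52 over the members and 0.01 over all genes tested. Vial 2 was lower than that mean by at least 0.5 for 26 members (54.2%) and for 6.34% of all genes, and it was higher by that much for no member and for 4.6% of all genes. Since each vial gave 1 array, a single vial has no replicate, and these values carry no test. An earlier analysis of these data had already shown this vial to be low in cell division genes, so the pattern is no independent finding.

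**Figure D3:**
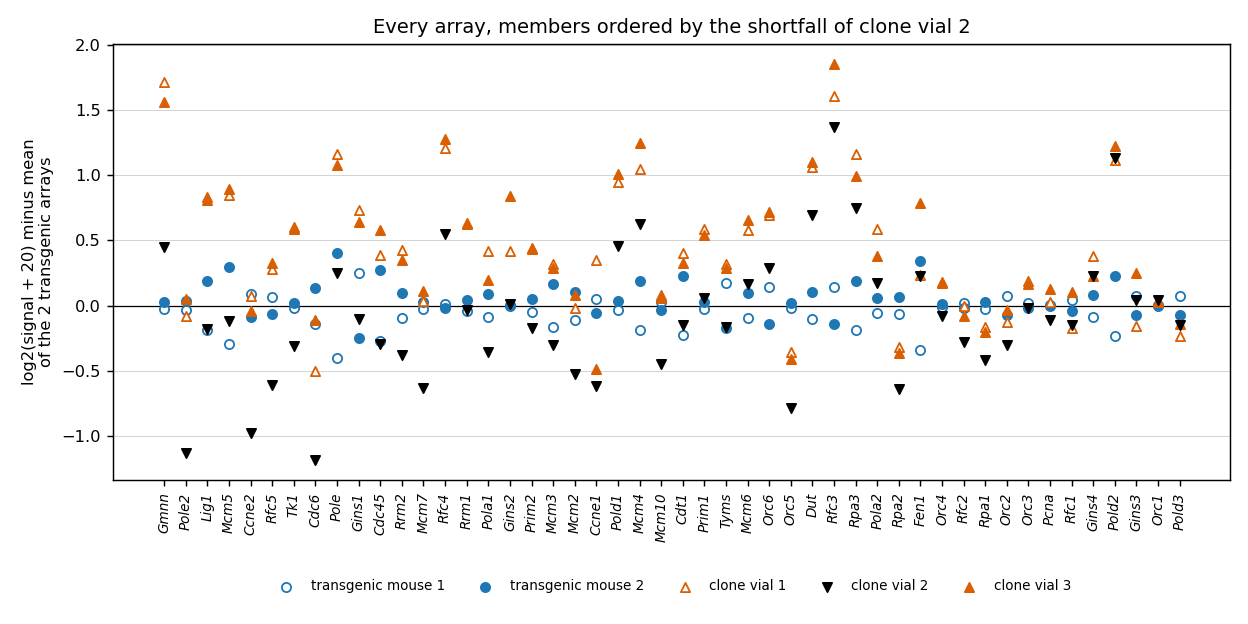
Each array's log2(signal + 20) minus the mean of the 2 transgenic arrays, for the 48 genes ordered from the largest shortfall of clone vial 2 (Gmnn, -1.19 against the mean of vials 1 and 3) to the smallest. Vial 2 (black) lies below both vials 1 and 3 (open and filled orange triangles) in 43 genes.

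The shortfall of vial 2 spread widely within roles, from -1.19 for Gmnn to 0.02 for Orc1 among the licensing genes, and no difference between roles was tested. It was deepest for Gmnn (-1.19), Pole2 (-1.11), Lig1 (-1.003), Mcm5 (-0.99), Ccne2 (-0.99), Rfc5 (-0.91), Tk1 (-0.91), Cdc6 (-0.88) and Pole (-0.87). By role the median was -0.77 for the 2 cyclins E, -0.66 for nucleotide supply, -0.58 for the MCM ring, -0.57 for helicase activation and -0.52 for polymerases and primase. It was -0.40 for origin recognition and licensing and -0.30 both for clamp and loader and for RPA, FEN1 and ligase. All 6 MCM genes, all 5 genes of nucleotide supply and all 5 of RPA, Fen1 and Lig1 had vial 2 lowest. By the brightest probe set, the members with little or no shortfall were Orc1 (0.02), Pold3 (0.04), Gins3 (-0.00), Pold2 (-0.04) and Gins4 (-0.08). Members with an E2F match in the promoter had a median of -0.52 (15 genes, -1.11 to 0.04) and those with a promoter but no match -0.41 (24 genes, -0.91 to -0.04). Of the 94 probe sets of the members above the filter, which share genes, vial 2 was lowest in 77.

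**Figure D4:**
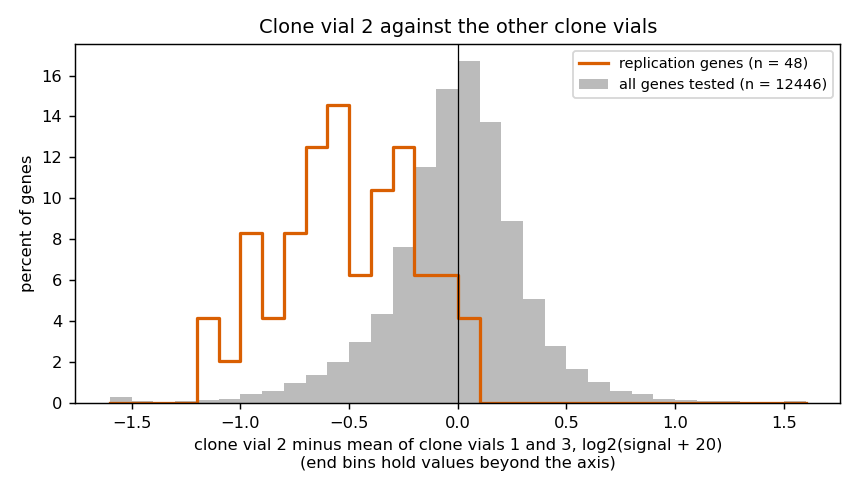
Distribution of clone vial 2 minus the mean of clone vials 1 and 3, on the log2(signal + 20) scale, for the 48 replication genes (line) and all 12446 genes tested (bars), in percent of genes. The median is -0.52 for the members and 0.01 for all genes.

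Measured against the mice, the vials fell on different sides by their medians over the members. Vials 1 and 3 both lay above both mice for 34 of 48 members, against 36.4% of all genes tested. Vial 2 lay below both mice for 24 of 48, which is near the 43.9% of all genes tested. The median of the members against the mean of the mice was 0.38 for vial 1, 0.33 for vial 3 and -0.13 for vial 2, while that of all genes tested was between -0.01 and 0.02 on each. Between the mice, the second was above the first for 31 members, by a median of 0.05, most in Pole (0.80), Fen1 (0.68) and Mcm5 (0.59).

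Leaving out vial 2 changed the count of members called higher more than leaving out any other array did. Without it 21 of 48 members were higher in clone (43.8%) and 2 lower, where 22.1% and 22.0% of all genes were called, and the median of the members was 0.34. Vial 2 was already known as the lowest vial for 43 of 48 members. Leaving it out raises the clone mean of those genes by construction, so the added calls are no independent finding. All 12 earlier calls were kept. The 11 added were Gins1, Gins2, Lig1, Mcm5, Pola2, Pole, Prim1, Prim2, Rrm1, Rrm2 and Tk1, with differences from 0.39 for Rrm2 (adjusted p = 0.0137) to 1.12 for Pole (adjusted p = 0.00743). Among those called in neither fit were Pcna, Mcm2, Mcm3, Mcm7, Rfc1, Rfc2 and the cyclins E. Without another array in turn, 8 or 9 members were called higher and 0 to 3 lower. Of all genes, 15.2% to 19.3% were then higher and 14.2% to 19.7% lower.

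**Figure D5:**
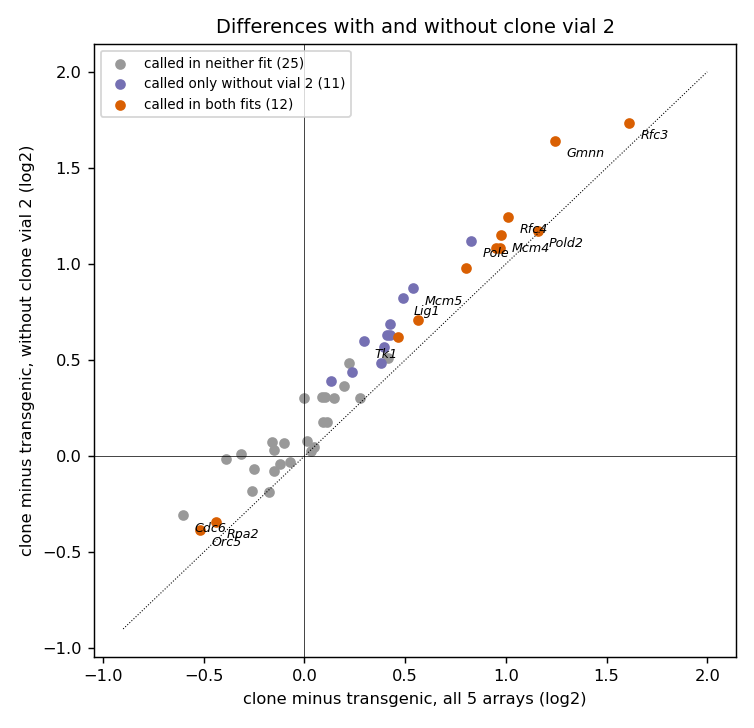
Difference between clone and transgenic cells with all 5 arrays (horizontal axis) and without clone vial 2 (vertical axis), in log2(signal + 20), for the 48 genes; the dotted line marks equal values. A gene with vial 2 below the mean of the other vials lies above the line by construction. So do the 11 genes called only without vial 2. All 12 genes called with all arrays were also called without vial 2.

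Other replication genes, from a list of 30 that holds the kinases, topoisomerases, fork proteins and chromatin assembly factors around the members, were read beside them. Of 29 tested, 5 were higher in clone (17.2%, against 22.0% of all genes tested), 0 lower (against 21.7%) and 24 not called, with a median of 0.04. Chtf18, a subunit of an alternative clamp loader, was dim in the mice (7.90 and 57.2) and gave 197, 121 and 208 in the vials (2.04, adjusted p = 0.00616). Its mean in the mice (32.55) was below the filter of 88.2, so it was tested only because it was high in the clone. Pole4, an accessory subunit of polymerase epsilon, gave 931 and 1184 against 2364, 2012 and 2449 (1.10, adjusted p = 0.000318). Uhrf1, which guides DNA methylation to new DNA (0.91, adjusted p = 0.0112), and the fork protein gene Tipin (0.50, adjusted p = 0.0459) were higher too, and Pole3 was the remaining one. Vial 2 was lowest for 23 of the 29 (79.3%), among them Top2a, Clspn and Dnmt1, which were not called. Without vial 2, 13 of the 29 were higher, where 22.1% of all genes were. Without any one of the other arrays 2 or 3 were, where 15.2% to 19.3% of all genes were.

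Of nucleotide synthesis genes outside the members, from a list of 32, 29 were tested. Of these 9 were higher in clone (31.0%, against 22.0% of all genes tested), 7 lower (24.1%, against 21.7%) and 13 not called, with a median of 0.15. The higher ones included Nme1, a nucleoside diphosphate kinase gene (1503 and 2086 against 6410, 4143 and 7911; 1.74, adjusted p = 0.000721), the serine hydroxymethyltransferase genes Shmt2 (1.73) and Shmt1 (1.43), which feed folate carbon to thymidylate and purines, and Gart (1.04) of purine synthesis. The lower ones included Samhd1, whose product degrades deoxynucleotides (10719 and 9755 against 4160, 5143 and 4716; -1.13, adjusted p = 7.33e-05), and Dck, a kinase of nucleoside salvage (-1.09, adjusted p = 0.00327). Rrm2b, the p53-linked small subunit of ribonucleotide reductase, was lower as well (-0.67, adjusted p = 0.00170). Vial 2 was lowest for 19 of the 29 (65.5%), with a median of -0.14. The count of higher genes fell to 5 without the first mouse, 6 without the second and 6 without vial 3. In these fits the share of all genes called higher also fell, from 22.0% to 15.2%, 16.5% and 18.8%.

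Of the 13 genes of the E2F and RB family, 5 were higher (38.5%, against 22.0% of all genes tested), 1 was lower (7.69%, against 21.7%) and 7 were not called. The family was split, with 7 positive and 6 negative differences, from -0.61 to 1.08. Its median of 0.61 is the value of Rb1 and does not describe a shift of the whole family. Without vial 2, 7 were higher and 1 lower, where 22.1% and 22.0% of all genes were. E2f1, an activator of replication genes, gave 173 and 283 in the mice and 442, 314 and 458 in the vials (0.80, adjusted p = 0.0273), with vial 2 nearest to the mice. E2f6 (1.08), E2f4 (0.69), the dimerization partner gene Tfdp1 (0.66) and Rb1 (0.61), the retinoblastoma gene, were higher, whereas the RB relative Rbl1 was lower (-0.61, adjusted p = 0.0249). The late E2F repressor genes E2f7 and E2f8 had vial 2 lowest by 1.25 and 1.32 and were not called.

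Some values that describe the cultures moved with the groups or with vial 2. Summed over 8 T cell markers the signal was 90024 to 97910 in the mice and 66902 to 77289 in the clone, and vial 2 had the highest sum among the vials. Of the 8, 5 were lower in clone: Cd2 (-1.75), Cd247 (-1.37), Cd8a (-0.68), Cd8b1 (-0.65) and Cd3d (-0.49). Cd3e, a T cell receptor complex gene, was the only 1 with a positive difference (0.19, not called). It gave 5325 and 4879 in the mice and 5323, 6498 and 5697 in the vials. The sum of 9 myeloid markers was 5591 and 8184 in the mice and 1481 to 1865 in the clone, 5 of the 7 tested being lower. That of 6 B cell markers was 1540 to 1685 against 804 to 1153. Of the 5 tested, 1 was lower, Cd79b, which gave 654 and 594 in the mice and 31.5, 2.70 and 46.0 in the vials, while Cd22 and Pax5 differed by 0.16 each. That of 5 dendritic cell markers 906 and 1416 against 544 to 621, with 2 of 4 tested lower. That of 3 CD4 T cell markers was 185 and 372 against 169 to 204, with 0 of 1 tested called. That of 5 erythroid and stromal markers was 1432 and 1474 against 702 to 807, where the 1 lower gene of 2 tested was Pecam1 (1076 and 992 against 350, 324 and 352). The myeloid gene Lyz2 gave 3497 and 5549 in the mice and 237 to 327 in the clone, and so made up most of the myeloid sum in the mice. Cd68 of the same list lay the other way, at 399 and 546 against 570, 828 and 627, and was not called (0.50, adjusted p = 0.0700). No marker was at 0. The ratio of the 3′ to the 5′ control probe set, a sign of RNA quality, was 0.763 and 0.775 for Gapdh in the mice and 0.869, 0.819 and 0.831 in the vials, and 1.05 on both mice and 1.06, 1.14 and 1.10 in the vials for beta-actin. The part of other cells and of RNA quality in the differences above was not tested.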

How the data were processed

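The authors deposited 1 linear intensity for each probe set and array. The submitters' processing notes name GCOS. Not given in the sources used here were its version, the detection calls and the scan dates. The 2% trimmed mean is 500 on each array, so no further scaling was done. No array is a copy of another: any pair shared 85 to 159 equal values among 45101 probe sets.

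The 34945 probe sets with 1 gene symbol in the platform annotation named genes, and 64 controls were left out. Each gene took its brightest probe set, kept at a mean of at least 88.2 (the 40th percentile), which left 12446 of 18193 genes and all 48 members. Groups were compared on log2(signal + 20) with limma 3.58.1 (R 4.3.3; lmFit, eBayes with trend, two-sided, without the replicate number as a block), after the fit was tested on simulated data. The error behind each p-value is that among vials of a single clone and that of 2 mice.

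Members, lists and the rule for named genes were chosen with earlier results of these data known. The rule names every called member, the 2 brightest uncalled members of each role, members varying among vials (SD above 0.5) and those whose probe sets disagree in direction by over 0.5. Of other lists it names up to 4 called genes, and further ones were chosen after their values were seen. Figures used matplotlib 3.10.9. The closing section gives the alternatives.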

Additional observations from a re-analysis of the deposited data

How the results depend on the processing

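The 48 members were refitted under 15 alternatives: quantile normalization, pseudocounts of 1 and 50, no filter, a filter at the 60th percentile, the mean over probe sets, leaving out _x_at or both _x_at and _s_at probe sets, eBayes without trend, the replicate block and each array left out. Rfc3, Rfc4, Pold1, Pold2, Rpa3 and Dut were called under all 15. The number of members called higher (10) was 8 to 12 in the settings that used all arrays and 8 to 21 when 1 array was left out, with 21 without clone vial 2. The number called lower (2) was 1 with eBayes without trend, 3 under quantile normalization, 3 with the replicate block and 0 to 3 with 1 array left out. Of all genes, 14.6% to 27.8% were called higher with all arrays and 15.2% to 22.1% with 1 array left out. The shares called lower were 14.7% to 25.8% and 14.2% to 22.0%. The same shares stand beside the counts of other genes that follow. Other replication genes called higher (5) numbered 3 with eBayes without trend and 3 with the replicate block, 7 under quantile normalization, and 2 to 13 with 1 array left out. Other nucleotide synthesis genes (9) numbered 7 to 12 in the settings that used all arrays and 5 to 10 with 1 array left out. The median difference of the members (0.17) was 0.08 to 0.34. Vial 2 was lowest for 41 to 44 members in the settings that could change it.

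With the replicate block, 9 members were higher and 3 lower, where 18.3% and 18.9% of all genes were. Mcm6 lost its call there (adjusted p = 0.0966) and Cdc6 gained one. The replicate numbers name vials in one group and mice in the other. Deviations of same-numbered arrays from their group means correlated at -0.03 and -0.08. With 2 mice, the deviations of one are those of the other with the sign reversed. These correlations therefore cannot show whether same-numbered arrays shared any handling.

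The differences of some members changed sign. Mcm4 was called higher and went to -0.449 without _x_at, and also without _x_at and _s_at probe sets, where only its other probe set remains. All the others below were called neither before nor after the change of sign. With the mean over probe sets the differences were Orc2 0.058, Mcm2 0.0444, Mcm7 0.199, Mcm10 0.184, Gins3 -0.003, Rfc1 0.0543, Rfc2 0.105, Pola1 -0.487 and Prim2 -0.37. Without _x_at and _s_at probe sets Mcm2 was 0.241 and Mcm7 0.224. Under quantile normalization Pcna was -0.096 and Rfc5 0.0446, with a pseudocount of 50 Rfc5 was 0.0012, and with the replicate block Gins3 was -0.0569 and Pcna -0.0445. When 1 array was left out, the differences that changed sign ranged, for Cdt1 from -0.0332 to 0.424, Mcm3 from -0.0652 to 0.306, Cdc45 from -0.049 to 0.495, Rfc5 from -0.163 to 0.304, Pola1 from -0.081 to 0.305, Gins3 from -0.0569 to 0.147, Tyms from -0.0299 to 0.32, Rrm2 from -0.0139 to 0.391, Mcm2 from -0.27 to 0.0327, Mcm7 from -0.299 to 0.0713, Mcm10 from -0.196 to 0.0688, Ccne2 from -0.511 to 0.0132 and Pcna from -0.0445 to 0.0769. The cause was not tested, save that fewer arrays or other probe sets enter by construction. Where a mouse was left out, the other one was taken to vary like the clone vials. Tyms and Ccne2 were not tested under the filter at the 60th percentile. The table holds no detection calls, so signal over background is unknown for dim probe sets such as those of Tyms and Chtf18.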
